A study of Arabidopsis thaliana with 17 samples.

Results

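The first hour after cutting was examined in dark-grown hypocotyls of Arabidopsis thaliana, by setting 3 libraries taken 1 h after the cut against 3 libraries taken at 0 h. Genes entered the comparison if they reached 1 RPKM in at least 2 of these 6 libraries, which held for 18646 of the 28642 genes in the table (65.1%). RPKM is the number of reads on a gene scaled to the length of its transcript and to the mapped reads of the library. The study followed wounded hypocotyls by stranded mRNA sequencing in 17 libraries at 6 time points up to 24 h. Seedlings of both groups were raised in darkness on a plain medium, their hypocotyls were severed, and the pieces stayed in the dark on the same medium; the labels name no genotype, accession, seedling age, hormone or other agent. The groups differ only in the time after cutting, 0 h or 1 h. Pieces that stayed uncut for the same hour were not analysed here, so time since the cut and time on the plate cannot be told apart. The labels do not say whether the 3 libraries of a time point came from separate batches of seedlings, so each p-value speaks of differences among these libraries, which may be technical.

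The read totals recovered from the table were 20740957 for 0 h library 1 and 7717255 to 7859246 for the other 5. A count of 3 reads on a 1 kb transcript corresponds to 0.145 RPKM in 0 h library 1 and to 0.382 to 0.389 RPKM in the others, which covers counting error only. Correlations of log2 values across the tested genes were 0.981 to 0.985 among the 1 h libraries and 0.783 to 0.820 between the groups. At 0 h, libraries 1 and 2 correlated at 0.990, and library 3 stood apart from them at 0.972 and 0.973. In library 3 of 0 h, 432 tested genes lay at least 1 below the mean of the other 0 h libraries on the log2(RPKM + 1) scale and 73 lay at least 1 above it. The low genes in 0 h library 3 included 19 of 27 auxin response genes and 13 of 28 wall genes, and the high ones included 5 of 19 genes of darkness and sugar starvation. In library 3 of 1 h, 314 tested genes lay at least 1 below its group and 20 at least 1 above, with 3 auxin response and 6 wall genes among the low ones. Results on those lists that 0 h library 3 moves are given below with and without it. These correlations run across genes, which do not stand in for replicates.

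A plant wound releases cell contents and changes pressure and membrane potential, and neighbouring intact cells respond with calcium influx, an oxidative burst and phosphorylation cascades. Within minutes the plastids begin to make jasmonate, whose isoleucine conjugate binds the receptor COI1 and marks the JAZ repressors for destruction, which frees MYC transcription factors. In Arabidopsis hypocotyls a callus later forms at the cut. An etiolated hypocotyl elongates fast in darkness under phytochrome-interacting factors, auxin, brassinosteroid and gibberellin, and lives on stored reserves.

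At 1 h, 3511 of the 18646 tested genes were higher and 10700 were lower than at 0 h at an adjusted p under 0.05 in limma, which is 18.8% and 57.4% of the genes tested, and 4435 did not pass. The median log2 change over all tested genes was -0.39, so a typical transcript held a smaller share of the reads at 1 h. Changes of at least 2-fold were evenly split, with 2012 genes higher (10.8%) and 2181 lower (11.7%), 22.5% together. The libraries of the groups did not overlap in 3491 genes that lay higher at 1 h (18.7%) and in 10441 that lay lower (56.0%), and calls in either direction made up 76.2%. The sizes were not even on the log2(RPKM + 1) scale, which understates the change of low genes. Of the genes that rose at least 2-fold, 979 had a log2 change of at least 2, 236 of at least 4 and 51 of at least 6, whereas 162 genes fell by at least 2 on the log2 scale, 8 by at least 3 and 0 by at least 4. The genes that rose at least 2-fold took 4.76% to 5.57% of the recovered mapped reads at 0 h and 30.4% to 31.2% at 1 h. These shares are a description only, because the same contrast chose the genes. RPKM shares a fixed total, so a rise in some genes lowers the share of the rest, and transcripts per cell were not measured. A fall smaller than the median change of -0.39 was therefore smaller than that of a typical tested gene. With every library centred on its median, 4690 genes were higher and 6797 lower, and 2487 and 1094 changed at least 2-fold; with quantile normalization the 2-fold counts were 2229 and 1553. The share of 2-fold calls that were higher was thus 48.0% as reported, 69.4% with median centring and 58.9% with quantile normalization. Other settings moved it the other way. With a pseudocount (the number added to RPKM before the log2) of 0.1 in place of 1, the share was 40.8% (2229 higher, 3239 lower). With voom on recovered reads it was 39.9% (2216 higher, 3344 lower). Hereafter "rose at least 2-fold" and "fell at least 2-fold" mean a log2 change of at least 1 in that direction. Both also require an adjusted p under 0.05 in limma. Counts with no other setting named are to be read against 10.8% and 11.7%. Counts under another setting are to be read against all tested genes in that setting. With median centring, for example, these were 2487 higher and 1094 lower of 18646. The gene lists were chosen with earlier results of these data known, so list shares and medians are a description, not a test.

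**Figure D1:**
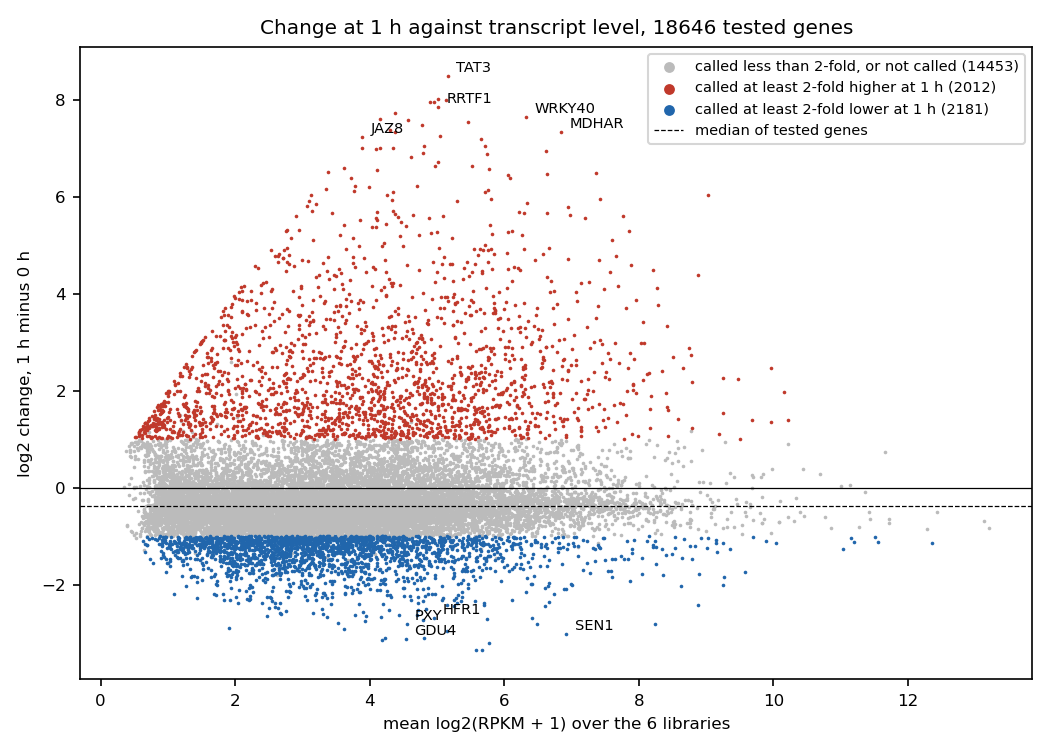
Log2 change at 1 h minus 0 h (vertical axis) against the mean log2(RPKM + 1) over the 6 libraries (horizontal axis), 1 point per tested gene; the dashed line is the median change of -0.39. Rises reach 8.49 (TAT3) whereas no fall passes -3.36 on the log2(RPKM + 1) scale, which understates the change of low genes.

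The 12 largest rises among genes with a RefSeq symbol were those of TAT3, FAMT, AOC2, AOC1, RRTF1, LOX3, WRKY40, HSP17.4, MSRB8, HSP17.6A, MDHAR and JAZ8, with log2 changes from 8.49 down to 7.23. TAT3 (AT2G24850, chr2:10582074-10585216, minus strand of TAIR10.1), a tyrosine aminotransferase induced by jasmonate, stood at 0.675, 1.86 and 0.387 RPKM at 0 h and 778, 686 and 580.4 RPKM at 1 h (log2 change 8.49, SE 0.23, adjusted p 2.43e-13). FAMT (AT3G44860), annotated as a farnesoic acid carboxyl-O-methyltransferase, stood at 0.508, 1.65 and 1.03 RPKM at 0 h and 627, 535 and 419 RPKM at 1 h. The rule admitted only genes whose groups did not overlap. CML39, described below, has its locus as its RefSeq symbol and so fell outside the rule, although its log2 change of 7.96 is within this range. RRTF1 (AT4G34410), an ethylene response factor that responds to redox state and is also known as ERF109, stood at 0.696, 0.552 and 2.76 RPKM at 0 h and 434, 476 and 570.0 RPKM at 1 h (log2 change 7.84, SE 0.29, adjusted p 5.59e-12). MDHAR (AT3G09940), a monodehydroascorbate reductase that restores ascorbate, stood at 10.02, 10.9 and 4.67 RPKM at 0 h and 1650.0, 1340.3 and 1401 RPKM at 1 h (log2 change 7.33, SE 0.30, adjusted p 4.59e-11). MSRB8 (AT4G21840), which repairs oxidised methionine, went from 0.136, 1.08 and 0.539 to 289, 235 and 242 RPKM. The 7 other genes of this group belong to the jasmonate pathway, the WRKY family or the small heat shock proteins and are taken up there.

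The 12 largest falls by the same rule were smaller, from -3.13 to -2.66 on the log2 scale. GDU4 (AT2G24762), of the glutamine dumper family that acts in amino acid export, stood at 79.1, 59.7 and 65.7 RPKM at 0 h and 6.22, 6.80 and 7.66 RPKM at 1 h (log2 change -3.13, SE 0.11, adjusted p 1.35e-12), and GDU1 stood at 26.45, 32.9 and 29.1 RPKM at 0 h and 3.41, 2.70 and 4.08 RPKM at 1 h. BRL2 (AT2G01950), a receptor kinase related to the brassinosteroid receptor and expressed in provascular tissue, stood at 38.6, 45.5 and 50.1 RPKM at 0 h and 6.76, 5.60 and 6.13 RPKM at 1 h (log2 change -2.67, SE 0.12, adjusted p 1.92e-11). EDA40 (AT4G37890), a RING finger protein, went from 32.8, 31.0 and 34.2 to 2.80, 3.97 and 3.72 RPKM, and IDD2, an indeterminate-domain zinc finger protein, went from 20.8, 21.6 and 34.1 to 2.77, 3.18 and 3.33 RPKM. PI4K GAMMA 7, a phosphoinositide 4-kinase family member, went from 120.4, 128 and 164 to 17.5, 21.5 and 21.3 RPKM. PP2-A13, a phloem protein 2 family member, went from 138, 229 and 318 to 23.98, 36.8 and 39.1 RPKM. The acyltransferase AT4G31910 (RefSeq symbol BAT1), which acts on brassinosteroids, went from 65.8, 69.2 and 77.4 to 7.98, 9.08 and 12.96 RPKM.

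**Figure D2:**
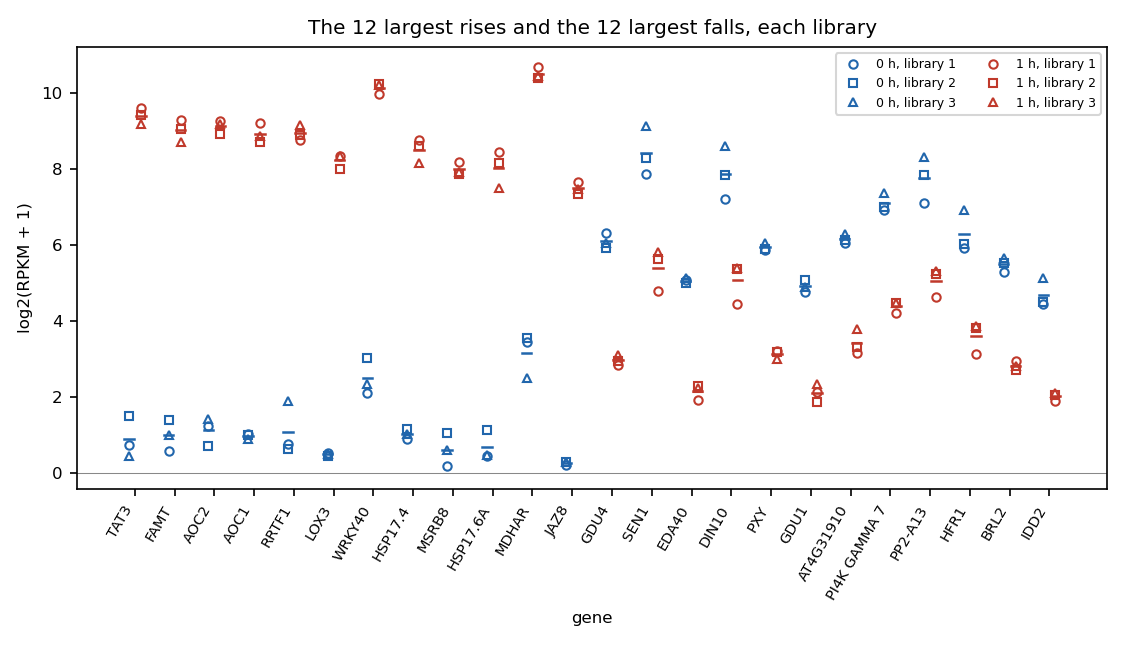
Log2(RPKM + 1) in each library (symbols) and the mean of each group (short lines) for the 12 largest rises (left) and the 12 largest falls (right), 0 h in blue and 1 h in red. Rises reach 8.49 on the log2 scale (TAT3) and falls -3.13 (GDU4); genes whose groups overlap were not eligible.

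Genes that went from near silence to strong expression formed a small set. In all, 41 genes lay under 0.5 RPKM in every 0 h library and at 10 RPKM or more in every 1 h library, and 0 genes did the reverse. With wider limits, 11 genes lay under 1 RPKM in every 0 h library and at 100 RPKM or more in every 1 h library. They were LOX3, JAZ8, SRO5, the kinase gene MAPKKK19, the small heat shock protein loci AT1G07400 and AT1G53540, the oxygenase locus AT2G38240, AT3G28600 (annotated as a nucleoside triphosphate hydrolase), the methyltransferase locus AT3G44870, AT5G12340 and the MATE efflux locus AT5G52050. MAPKKK19 (AT5G67080), a kinase at the head of a MAP kinase cascade, stood at 0.559, 0.123 and 0.738 RPKM at 0 h and 107, 129 and 126 RPKM at 1 h. SRO5 (AT5G62520), of a family related to poly(ADP-ribose) polymerases, stood at 0.697, 0.958 and 0.736 RPKM at 0 h and 225, 215 and 254 RPKM at 1 h. These genes and the 24 above were chosen by the contrast itself, and their levels are a description.

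The 250 bases upstream of the annotated gene start were read for 27431 protein-coding genes from the RefSeq TAIR10.1 genome, and 6 promoters of genes that rose are shown because each holds a short sequence known to bind a family of stress-related factors; they were picked after the matches were known. The letters searched, on both strands, were CACGTG (the G-box, bound by MYC and other bHLH or bZIP factors), TTGACC or the variant TTGACT (the W-box, bound by WRKY factors), CGCGTT (bound by calmodulin-binding CAMTA factors and here called the CGCG element), GAANNTTC (the heat shock element), AAAATATCT (the evening element of the clock) and, added later, the tripartite heat shock element, in which a further unit of the same kind follows or precedes the heat shock element after a 2-base gap and which therefore overlaps it. Capitals mark the matches to the letters named in each line.
JAZ8, G-box, chr1:10596102-10596351, plus strand: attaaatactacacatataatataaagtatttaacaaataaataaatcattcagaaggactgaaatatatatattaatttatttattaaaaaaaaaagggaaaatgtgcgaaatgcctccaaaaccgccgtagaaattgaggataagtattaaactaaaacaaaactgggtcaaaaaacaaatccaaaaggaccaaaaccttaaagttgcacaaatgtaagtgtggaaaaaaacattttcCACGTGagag
RRTF1, G-box, chr4:16451626-16451875, plus strand: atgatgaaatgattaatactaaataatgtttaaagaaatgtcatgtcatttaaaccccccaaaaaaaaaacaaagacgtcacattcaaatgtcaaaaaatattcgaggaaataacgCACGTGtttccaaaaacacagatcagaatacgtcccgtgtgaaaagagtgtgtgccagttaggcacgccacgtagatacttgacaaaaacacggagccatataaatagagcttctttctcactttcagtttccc
PUB23, W-box, chr2:15084560-15084809, minus strand: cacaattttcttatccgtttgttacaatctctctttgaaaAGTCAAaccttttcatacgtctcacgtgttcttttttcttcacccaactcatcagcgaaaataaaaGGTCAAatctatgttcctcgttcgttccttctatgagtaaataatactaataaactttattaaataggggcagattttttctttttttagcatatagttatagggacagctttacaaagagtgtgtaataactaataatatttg
XTH18, CGCG element, chr4:14827212-14827461, minus strand: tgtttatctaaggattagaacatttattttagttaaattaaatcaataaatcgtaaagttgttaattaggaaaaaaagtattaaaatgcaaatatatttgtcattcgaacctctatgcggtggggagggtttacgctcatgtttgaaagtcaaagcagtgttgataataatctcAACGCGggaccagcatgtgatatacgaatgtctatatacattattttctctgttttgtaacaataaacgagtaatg
HSFA2, tripartite heat shock element, chr2:11135374-11135623, plus strand: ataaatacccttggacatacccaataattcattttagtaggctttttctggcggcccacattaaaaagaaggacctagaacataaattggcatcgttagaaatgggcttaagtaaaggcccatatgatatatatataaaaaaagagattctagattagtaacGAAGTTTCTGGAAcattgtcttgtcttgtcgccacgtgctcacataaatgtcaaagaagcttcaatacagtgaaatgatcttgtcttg
HSP17.4, tripartite heat shock element, chr3:16984868-16985117, minus strand: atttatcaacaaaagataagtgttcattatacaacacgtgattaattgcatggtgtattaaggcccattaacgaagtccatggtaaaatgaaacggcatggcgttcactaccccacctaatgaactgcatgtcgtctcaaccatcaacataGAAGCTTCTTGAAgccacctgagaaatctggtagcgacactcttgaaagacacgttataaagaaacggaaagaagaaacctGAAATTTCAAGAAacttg
The sequences run 5′ to 3′ towards the gene, which begins at the next base. The G-box of JAZ8 starts 10 bases before the gene and that of RRTF1 134 bases before it. The promoters of PUB23 and HSP17.4 hold 2 matches each, and the others 1.

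W-box, G-box, CGCG element and heat shock element were found more often upstream of genes that rose at least 2-fold than of genes that fell. A W-box stood in 37.1% of 105 promoters of genes that rose 32-fold or more, 41.8% of 371 that rose 8-fold to 32-fold and 38.0% of 1482 that rose 2-fold to 8-fold. The share was 28.2% of all tested genes and 28.4% of all promoters, 24.1% of 1955 genes that fell 2-fold to 4-fold and 18.1% of 155 that fell 4-fold or more. A G-box stood in 14.3%, 13.5% and 11.7% of the 3 rising classes, 7.48% of tested genes and 6.49% of all promoters. For CGCGTT the shares were 9.52%, 7.55% and 6.41% against 2.93% and 2.59%, and 0 of the 155 promoters of the deepest falls held it. The element GAANNTTC stood in 18.1%, 14.6% and 12.2% against 9.32% and 9.54%. The evening element stood in 4.76%, 4.31% and 2.90% against 2.46% and 2.36%, and in 2.81% and 1.94% of the falling classes. The tripartite element stood in 3 of the 105, 5 of the 371 and 14 of the 1482, against 76 of 18237 tested genes (0.417%) and 105 of all 27431 (0.383%). A match is a description of letters in a window, not a bound site, and no test was made.

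Gene structure differed between the classes as well. Of all tested protein-coding genes 13.7% had gene models with a single exon. The share was 31.4% among the 105 that rose 32-fold or more, 34.2% and 21.9% in the next classes, 1559 of 14169 among genes that changed less, 19.5% among those that fell 2-fold to 4-fold and 45.2% among those that fell 4-fold or more. Genes with the largest changes in either direction were thus more often without introns. Of 1958 protein-coding genes that rose at least 2-fold, 35.9% had a neighbour that also rose, and of 2111 that fell, 29.5% had a neighbour that fell. Neighbours were taken in the order of tested protein-coding genes, so untested genes can lie between them. These shares were not set against other genes, nor against what the number of called genes alone would give. They therefore do not show that genes that changed lie together, or that the classes differ in this.

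**Figure D3:**
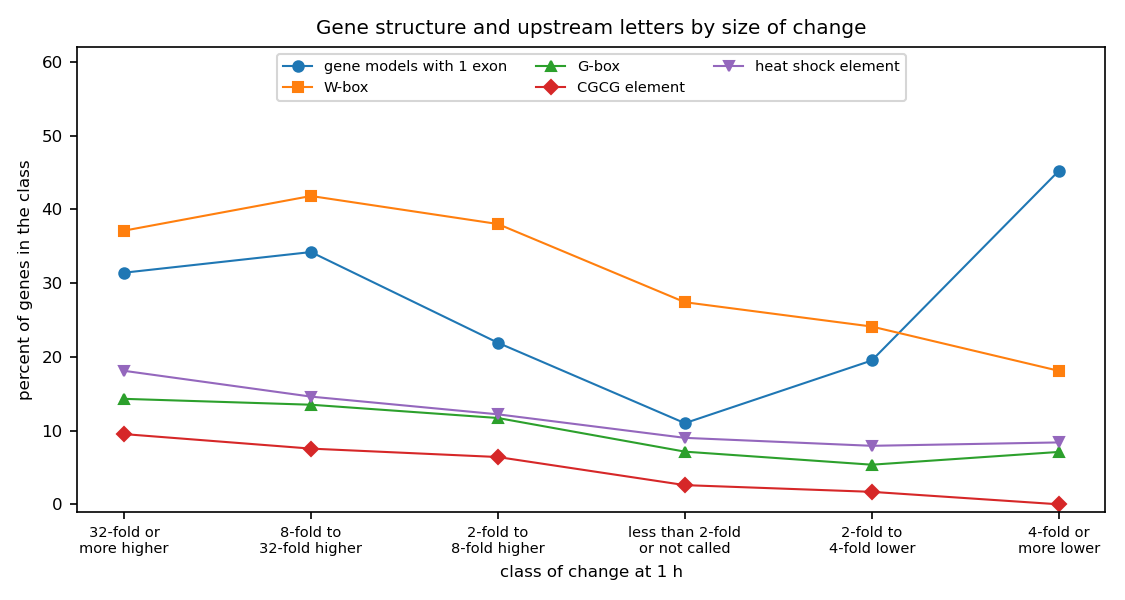
Percent of genes (vertical axis) with a single-exon gene model, and percent of promoters that hold each set of letters within 250 bases before the gene, for 6 classes of change at 1 h (horizontal axis). Single-exon shares are high at both ends (31.4% and 45.2%), whereas the W-box falls from 37.1% to 18.1%.

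Calcium signalling genes mostly rose. Of the list of calcium sensors, channels and pumps, 16 of 24 tested members rose at least 2-fold and 1 fell at least 2-fold, and its median change lay 2.66 above that of all tested genes on the log2 scale. The calmodulin-like proteins CML37, CML38 and CML39, which bind calcium through EF hands, were low before. CML39 stood at 0.301, 1.86 and 0.795 RPKM at 0 h and 557, 408 and 450.0 RPKM at 1 h (log2 change 7.96, SE 0.30, adjusted p 9.65e-12). CML38, its neighbour on chromosome 1, went from 2.24, 2.40 and 5.74 to 638, 569.7 and 619 RPKM, and CML37 went from 0.853, 3.06 and 0.643 to 267, 246 and 261 RPKM. The groups did not overlap in any of them. CML12, a touch-induced gene also known as TCH3, already had a level at 0 h and went from 41.2, 69.8 and 36.8 to 1123, 1345 and 1041 RPKM. The plasma membrane calcium pump ACA12, which exports calcium, went from 0.347, 0.102 and 0.271 to 22.98, 21.5 and 21.6 RPKM, and the cyclic nucleotide-gated channel CNGC19 went from 1.77, 2.20 and 1.497 to 53.7, 50.95 and 48.4 RPKM (log2 change 4.21, SE 0.12, adjusted p 1.83e-13). CPK28, a calcium-dependent kinase that turns over the immune kinase BIK1, rose from 20.7 ± 1.38 to 136 ± 5.62 RPKM (SD, n = 3). The glutamate receptor-like channel GLR3.6, which carries wound signals between leaves, was the exception and went from 4.998, 5.69 and 5.83 to 1.98, 2.15 and 1.66 RPKM (log2 change -1.15, SE 0.14, adjusted p 3.44e-06), and GLR3.3 did not pass the test (log2 change 0.26, adjusted p 0.0579).

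Genes for danger peptides and their receptors rose as well. In the list of danger peptides and surface immune receptors, 14 of 19 tested members rose at least 2-fold and 0 fell at least 2-fold. PROPEP4, a precursor of the Pep peptides that cells release on damage, stood at 1.87, 1.65 and 1.18 RPKM at 0 h and 100.6, 79.2 and 63.5 RPKM at 1 h (log2 change 4.98, SE 0.23, adjusted p 2.98e-11). The receptor kinase genes PEPR1 and PEPR2, which bind these peptides, went from 12.3, 13.7 and 11.9 to 149, 189 and 172 RPKM and from 2.85, 3.05 and 2.56 to 37.5, 44.8 and 35.5 RPKM. The chitin receptor kinase LYK5 went from 4.20, 4.10 and 2.78 to 36.5, 50.5 and 63.1 RPKM. In all 4 genes every 1 h library lay above every 0 h library. The ubiquitin ligases PUB22, PUB23 and PUB24, which dampen immune signalling, rose by 3.35, 4.25 and 3.32 on the log2 scale, with PUB23 at 6.43, 10.7 and 3.301 RPKM at 0 h and 132, 137 and 138 RPKM at 1 h. NHL10, an early marker of this response, went from 0.927, 1.87 and 0.432 to 20.8, 32.8 and 36.4 RPKM. The co-receptor BAK1 rose by less than 2-fold (0.88 with SE 0.07). Of the MAP kinase list, 6 of 16 tested members rose at least 2-fold and 1 fell at least 2-fold. MPK3, a wound-activated MAP kinase, went from 49.6, 56.3 and 51.4 to 245, 267 and 244 RPKM, the kinase kinase MKK9 went from 13.4, 21.7 and 14.1 to 96.0, 81.3 and 76.8 RPKM, and the phosphatase AP2C1, which inactivates such kinases, went from 17.02, 18.1 and 15.5 to 219, 219 and 244 RPKM (log2 change 3.67, SE 0.08, adjusted p 8.76e-15). MPK6, which acts beside MPK3, fell by less than 2-fold (-0.22 with SE 0.07), less than the median change of all tested genes (-0.39). MPK4 did not pass (-0.05, adjusted p 0.554). With median centring MPK6 did not pass (0.03, adjusted p 0.704 in limma) and MPK4 rose by less than 2-fold (0.20, adjusted p 0.0432 in limma). MPK1 fell from 11.9, 10.4 and 13.6 to 3.94, 4.78 and 3.71 RPKM.

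Among enzymes that make or remove reactive oxygen, 14 of 20 tested members rose at least 2-fold and 0 fell at least 2-fold. The list also holds glutathione transferases and alternative oxidases, all of which rose at least 2-fold with all libraries. RBOHD, the oxidase behind the wound-induced oxidative burst, stood at 26.7, 27.5 and 24.01 RPKM at 0 h and 164, 178 and 193 RPKM at 1 h (log2 change 2.73, SE 0.08, adjusted p 2.15e-13), and RBOHF went from 14.4, 12.8 and 10.3 to 71.9, 70.9 and 65.6 RPKM. Scavengers were mixed. Cytosolic ascorbate peroxidase APX1 rose from 407 ± 87.4 to 862 ± 82.3 RPKM (SD, n = 3), whereas catalase CAT3, among the most abundant transcripts per length of this list, fell from 6727 ± 308 to 3700.0 ± 207 RPKM (log2 change -0.86). The alternative oxidase AOX1D was listed at 0 in all 0 h libraries and stood at 4.75, 6.04 and 3.38 RPKM at 1 h. Glutathione transferases of the tau class, which conjugate reactive compounds, stand side by side on chromosome 2. GSTU6, GSTU5, GSTU4, GSTU3, GSTU2 and GSTU1 and the neighbouring small heat shock locus AT2G29500 formed the longest run of adjacent tested protein-coding genes that all rose at least 4-fold, with 7 genes from 12619630 to 12634120 of chromosome 2 in TAIR10.1. GSTU5 reached the highest level, from 65.2 ± 16.8 to 4259 ± 124 RPKM, and GSTU6 went from 36.6 ± 8.41 to 1453 ± 122.4 RPKM (SD, n = 3). GSTU4 stood at 6.39, 8.44 and 4.07 RPKM at 0 h and 481, 413 and 420.2 RPKM at 1 h. Reads shared between near-identical members of this cluster could have been split by the counting, which the sources used here do not describe. GSTU25, elsewhere in the genome, was 2.67 RPKM in 0 h library 3 against 30.8 and 25.1 RPKM in the other 0 h libraries, and its log2 change was 1.90 with that library and 0.91 with adjusted p 0.0162 without it.

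Listed transcription factors known from early stress responses rose in most tested cases. Among the listed WRKY factors, a part of the family, 18 of 26 tested members rose at least 2-fold and 2 fell at least 2-fold, with a median 2.43 above that of all tested genes. WRKY40, a repressor of immune and abscisic acid responses, stood at 3.35, 7.25 and 4.15 RPKM at 0 h and 1011, 1214 and 1185 RPKM at 1 h (log2 change 7.64, SE 0.22, adjusted p 5.41e-13). Its partner WRKY18 stood at 15.96, 18.01 and 17.1 RPKM at 0 h and 799, 920.3 and 943 RPKM at 1 h (log2 change 5.62, SE 0.15, adjusted p 8.3e-14). In both genes all 1 h libraries lay far above all 0 h libraries. WRKY60, the third member of that group, moved the other way, from 51.7, 41.003 and 19.5 to 19.2, 14.6 and 10.6 RPKM, with a 0 h library 3 close to the 1 h level. WRKY7 also fell (-1.04); without 0 h library 1, and likewise without 1 h library 1, the number of WRKY genes that fell at least 2-fold was 1. WRKY33, needed for camalexin synthesis, went from 17.97, 35.7 and 21.01 to 281, 377 and 322 RPKM, and WRKY28 went from 0.272, 0.616 and 0.410 to 20.9, 27.2 and 22.04 RPKM. WRKY53, a senescence regulator, did not pass (4.46, 6.99 and 2.52 RPKM at 0 h and 7.96, 5.68 and 3.92 RPKM at 1 h, adjusted p 0.254).

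Among the listed ERF and DREB factors, 19 of 26 tested members rose at least 2-fold and 0 fell at least 2-fold, and the list median lay 4.20 above that of all tested genes. ERF98, a regulator of ascorbate synthesis, stood at 0.689, 0.607 and 0.606 RPKM at 0 h and 95.6, 132 and 112 RPKM at 1 h (log2 change 6.12, SE 0.22, adjusted p 1.53e-12). RAP2.6, a stress-induced factor of the group that holds RRTF1, stood at 4.45, 8.26 and 4.05 RPKM at 0 h and 504, 406 and 396 RPKM at 1 h (log2 change 6.10, SE 0.18, adjusted p 3.29e-13). ERF13 went from 1.29, 3.14 and 1.64 to 175, 135 and 129 RPKM, and AT5G61890, annotated as an integrase-type DNA-binding protein, went from 1.32, 2.09 and 0.976 to 149, 123 and 100.5 RPKM. The libraries of the 2 times did not overlap in any of these. ORA47, which activates jasmonate synthesis genes, went from 1.31, 1.94 and 3.88 to 96.7, 98.9 and 123 RPKM. DREB2A, which acts in drought and heat, went from 6.32, 13.5 and 6.77 to 283, 290.4 and 268 RPKM. ERF115, which marks stem cell replenishment after damage in roots, went from 2.62, 3.54 and 1.45 to 48.9, 46.97 and 39.3 RPKM. ERF1, which joins ethylene and jasmonate signals, went from 1.91, 0.928 and 0.794 to 25.9, 31.5 and 28.3 RPKM, whereas ORA59, which also joins them, did not pass (1.29, 1.37 and 2.32 RPKM at 0 h and 0.974, 0.413 and 0.832 RPKM at 1 h, adjusted p 0.132). The cold factors CBF1, CBF2 and CBF3 did not pass either, with log2 changes of 0.29 for CBF1 and 0.50 for CBF2.

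The zinc finger, NAC and MYB factors listed also rose in most tested cases. Of 10 C2H2 zinc finger genes, 7 rose at least 2-fold and 1 fell. ZAT12, induced by many stresses, stood at 7.68, 13.4 and 5.30 RPKM at 0 h and 359, 329 and 343 RPKM at 1 h (log2 change 5.22, SE 0.24, adjusted p 7.18e-11). ZAT6 went from 10.5, 18.8 and 14.9 to 339, 364 and 361 RPKM, and the zinc finger locus AT3G53600, not detected in 2 of the 0 h libraries, went from 0, 0.241 and 0 to 58.9, 40.1 and 31.3 RPKM. The exception was the locus AT2G28200, which fell from 25.4, 19.1 and 35.1 to 5.59, 4.87 and 6.13 RPKM. Among the listed NAC factors, 11 of 15 tested members rose at least 2-fold and 0 fell at least 2-fold. ATAF2, a wound-induced NAC factor, stood at 38.7, 61.4 and 32.5 RPKM at 0 h and 657, 778 and 795 RPKM at 1 h (log2 change 4.09, SE 0.17, adjusted p 2.19e-11), and NAC019, which acts under jasmonate and drought, went from 0.0753, 0.199 and 0.0994 to 18.02, 15.2 and 13.6 RPKM. NAC042 went from 3.72, 3.32 and 3.03 to 36.1, 33.5 and 34.3 RPKM. NAC071, which acts in the healing of cut stems, did not pass (1.04, 1.78 and 1.29 RPKM at 0 h and 0.985, 2.44 and 0.655 RPKM at 1 h, adjusted p 0.863). Among the listed MYB factors, 7 of 12 tested members rose at least 2-fold and 1 fell at least 2-fold. MYB15, a regulator of defence lignin, stood at 1.66, 1.97 and 0.895 RPKM at 0 h and 179.9, 158 and 164 RPKM at 1 h (log2 change 6.09, SE 0.13, adjusted p 8.76e-15). MYB108 went from 0.0273, 0 and 0 to 17.3, 24.1 and 29.1 RPKM, and MYB74 went from 12.3, 15.1 and 9.53 to 136, 90.5 and 112.95 RPKM. MYB28, which drives aliphatic glucosinolate synthesis, fell from 14.6, 11.9 and 9.45 to 3.302, 2.42 and 4.01 RPKM.

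Factors of messenger RNA turnover were split, with 4 of 15 tested members that rose at least 2-fold and 4 that fell. The deadenylases CAF1a and CAF1b, which shorten poly(A) tails, went from 36.2, 48.8 and 29.1 to 252, 311 and 303 RPKM and from 9.32, 9.61 and 9.18 to 112, 160.1 and 166 RPKM. The tandem zinc finger gene SZF1, induced by salt and elicitors, went from 19.8, 32.1 and 22.6 to 228, 248 and 261 RPKM. The related TZF1, TZF2, TZF3 and TZF7 fell, with log2 changes of -2.40, -1.57, -2.13 and -1.48. TZF1 stood at 15.2, 19.97 and 42.7 RPKM at 0 h and 2.32, 6.89 and 2.89 RPKM at 1 h, with the highest 0 h value in library 3. The decapping and decay genes DCP2, VCS, XRN4 and UPF1 fell by less than 2-fold (-0.83, -0.60, -0.36 and -0.36). The falls of XRN4 and UPF1 were smaller than the median change of all tested genes.

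**Figure D4:**
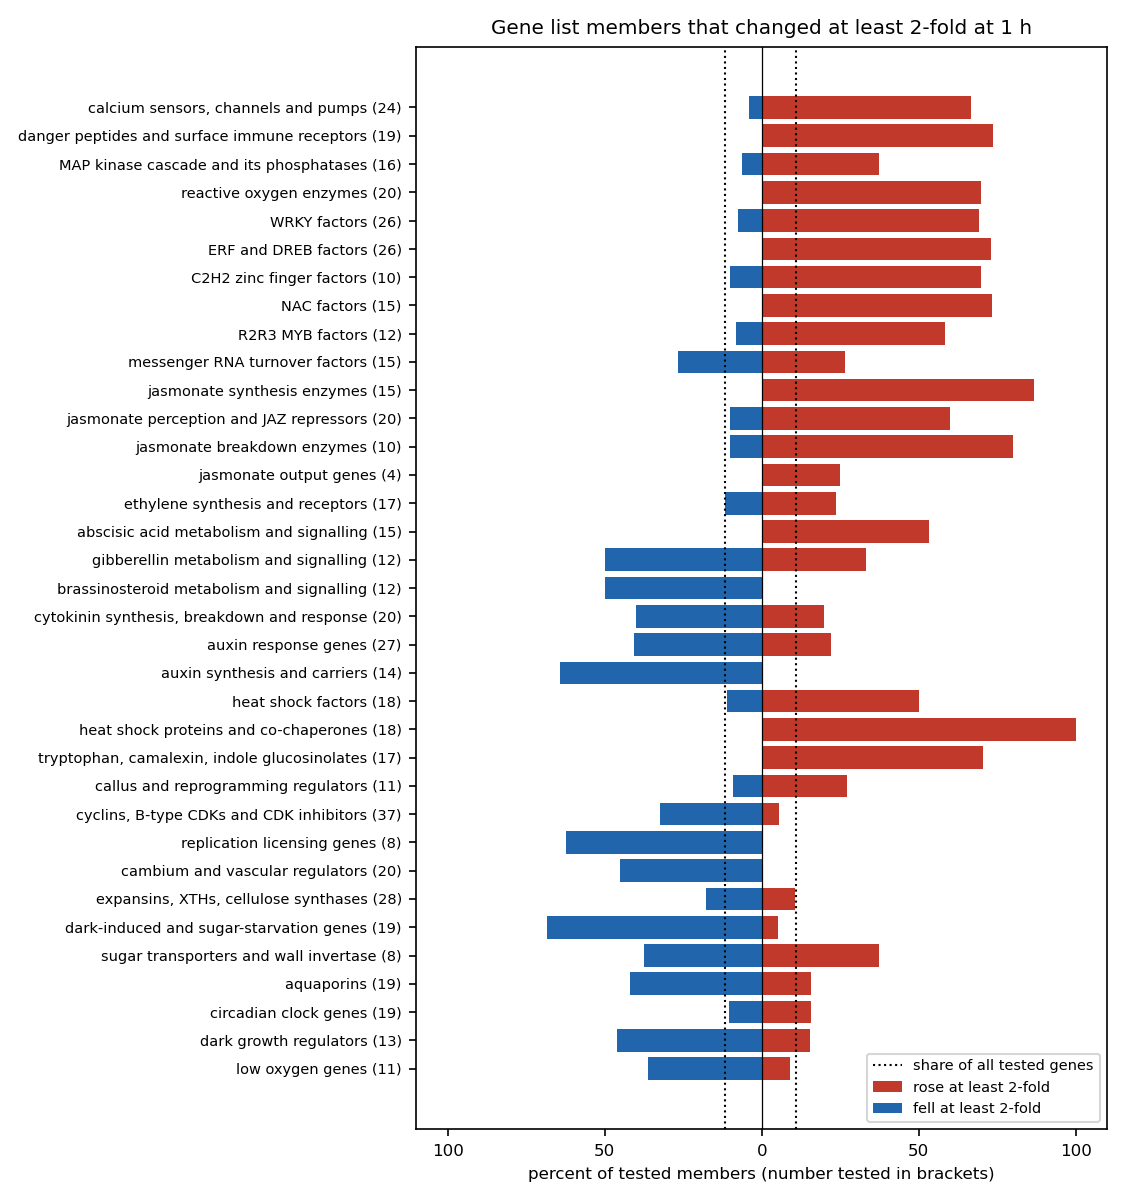
Percent of the tested members of each gene list (rows, number tested in brackets) that rose (red, right) or fell (blue, left) at least 2-fold; dotted lines mark the shares of all tested genes, 10.8% and 11.7%. Signalling, transcription factor, jasmonate and heat shock lists lean to the right, and brassinosteroid, auxin carrier, replication licensing, cambium and dark-response lists lean to the left.

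Nearly the whole jasmonate synthesis pathway rose. Of 16 enzymes listed 15 were tested, 13 rose at least 2-fold and 0 fell at least 2-fold, and the list median lay 4.93 above that of all tested genes. The lipases DAD1 and DGL, which free fatty acids from membrane lipids, were listed at 0 in every 0 h library; DAD1 stood at 8.60, 6.72 and 6.65 RPKM at 1 h, and DGL at 6.95, 4.71 and 6.75 RPKM. Among the 13-lipoxygenases, which oxygenate linolenic acid, LOX3 stood at 0.457, 0.388 and 0.430 RPKM at 0 h and 323, 258 and 324 RPKM at 1 h (log2 change 7.72, SE 0.14, adjusted p 2.25e-15), LOX4 went from 2.81, 3.18 and 3.97 to 198, 192 and 215 RPKM, and LOX6, present before the cut, went from 22.8, 24.5 and 15.6 to 92.4, 74.4 and 74.2 RPKM. LOX2 did not reach the threshold for testing. AOS, which makes the allene oxide, stood at 33.8, 36.2 and 28.2 RPKM at 0 h and 880.2, 809 and 915 RPKM at 1 h (log2 change 4.69, SE 0.12, adjusted p 4.68e-14). The cyclases AOC1, AOC2 and AOC3 lie next to each other on chromosome 3. AOC3 stood at 17.9, 20.8 and 11.9 RPKM at 0 h and 1550.2, 1436 and 1683 RPKM at 1 h, AOC2 at 1.38, 0.650 and 1.69 RPKM at 0 h and 615, 489 and 578 RPKM at 1 h and AOC1 at 1.06, 1.02 and 0.892 RPKM at 0 h and 595, 420.1 and 466 RPKM at 1 h. All 3 were higher in every 1 h library, whereas AOC4, on chromosome 1, did not pass (55.3, 45.4 and 37.5 RPKM at 0 h and 43.4, 41.3 and 42.6 RPKM at 1 h, adjusted p 0.479). The AOC genes are close copies, and reads shared among them are a source of uncertainty. OPR3, the reductase of the peroxisome, stood at 15.3, 18.1 and 13.8 RPKM at 0 h and 924, 889 and 952 RPKM at 1 h and had the smallest p-value of the list (log2 change 5.79, SE 0.08, adjusted p 1.81e-16). OPCL1 and ACX1, of the following beta-oxidation, went from 15.6, 15.9 and 10.3 to 345, 338 and 337 RPKM and from 78.3, 78.7 and 71.5 to 302, 285 and 297 RPKM. The thiolase KAT2 fell by less than 2-fold (-0.16, adjusted p 0.0496), a smaller fall than the median change of all tested genes. JAR1, which joins jasmonate to isoleucine, went from 38.6, 37.4 and 32.6 to 453, 337 and 455 RPKM.

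Of the perception genes and repressors, 12 of 20 tested members rose at least 2-fold and 2 fell at least 2-fold. JAZ8, a repressor without the usual degron, stood at 0.171, 0.226 and 0.226 RPKM at 0 h and 203, 163 and 179 RPKM at 1 h (log2 change 7.23, SE 0.27, adjusted p 6.21e-12 in limma). Its promoter with the G-box is shown above. A G-box stood in 4 of the 20 promoters of this list, against 7.48% of tested genes. JAZ7 stood at 1.85, 2.82 and 8.08 RPKM at 0 h and 472, 405 and 503 RPKM at 1 h and JAZ10 at 4.33, 5.97 and 3.76 RPKM at 0 h and 579, 499 and 529.9 RPKM at 1 h. At 0 h JAZ7 was highest in library 3, and in all 3 the groups were far apart. JAZ1 reached the highest 1 h level per length of the repressors, 31.5, 44.3 and 23.7 RPKM at 0 h and 1095, 1152 and 1180.5 RPKM at 1 h (log2 change 5.11, SE 0.17, adjusted p 1.02e-12). JAZ2, JAZ5, JAZ6 and JAZ9 rose by 4.03, 5.61, 4.94 and 4.93, and JAZ3 by 2.02. Not all members moved so. JAZ4 (-0.14, adjusted p 0.405) and JAZ12 (0.12, adjusted p 0.123) did not pass, and JAZ11 fell by less than 2-fold (-0.67). The receptor gene COI1 fell from 22.4, 22.4 and 24.5 to 7.63, 9.15 and 7.49 RPKM (log2 change -1.41, SE 0.08, adjusted p 3.68e-10). Of the MYC activators that JAZ proteins bind, MYC2 rose from 72.2, 84.9 and 68.4 to 455, 471 and 493 RPKM, MYC4 fell from 20.3, 21.98 and 23.603 to 7.35, 6.87 and 6.92 RPKM, and MYC3 fell by less than 2-fold (-0.59). JAM1, a bHLH repressor of the same targets, went from 5.51, 6.09 and 5.76 to 182, 159.7 and 154 RPKM.

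Jasmonate breakdown genes rose within the same hour, with 8 of 10 tested members that rose at least 2-fold. CYP94B3, which hydroxylates the active conjugate, stood at 9.22, 7.90 and 11.5 RPKM at 0 h and 541, 434 and 644 RPKM at 1 h (log2 change 5.68, SE 0.15, adjusted p 6.87e-14), CYP94C1, which oxidises it further, went from 3.004, 2.87 and 1.60 to 73.1, 78.6 and 87.4 RPKM, and the amidohydrolases ILL6 and IAR3, which cleave it, went from 9.29, 9.53 and 6.24 to 297, 274 and 316 RPKM and from 65.5, 68.2 and 59.01 to 1037, 899 and 933 RPKM. The 2-oxoglutarate-dependent oxygenase loci AT2G38240 and AT5G05600 went from 0.180, 0.191 and 0.476 to 236, 212 and 300.3 RPKM and from 3.102, 5.28 and 3.64 to 568, 561 and 609 RPKM. The related locus AT3G11180 moved the other way, from 7.11, 3.85 and 7.54 to 1.47, 1.29 and 3.82 RPKM. The sulfotransferase ST2A did not pass (-0.34, adjusted p 0.0625). Of the 4 tested genes known as late jasmonate outputs, only TAT3 rose at least 2-fold; VSP2, a vegetative storage protein, stood at 9.40, 14.4 and 8.78 RPKM at 0 h and 14.95, 15.99 and 13.6 RPKM at 1 h (adjusted p 0.0909), and VSP1 rose by less than 2-fold (0.57).

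Stress hormones other than jasmonate changed in part. Of the ethylene list, 4 of 17 tested members rose at least 2-fold and 2 fell at least 2-fold. ACS6, the synthase of the ethylene precursor that MPK3 and MPK6 stabilise, went from 16.97, 27.0 and 11.1 to 83.8, 91.9 and 99.2 RPKM (log2 change 2.34, SE 0.22, adjusted p 1.85e-07), and ACS2 and ACS8 rose from low levels by 1.63 and 1.55. ACS11 passed with all libraries (1.07, adjusted p 0.041) but not without 0 h library 3 (0.49 with adjusted p 0.244), 0 h library 1 (1.14 with adjusted p 0.0619), 1 h library 1 (0.86 with adjusted p 0.136) or 1 h library 2 (1.02 with adjusted p 0.0915). The receptors ETR2 and ERS2 fell, with log2 changes of -1.37 and -1.17. In the abscisic acid list, 8 of 15 tested members rose at least 2-fold and 0 fell at least 2-fold. NCED3, the rate-limiting enzyme of synthesis under drought, went from 8.88, 9.37 and 6.55 to 64.5, 69.96 and 72.6 RPKM (log2 change 2.93, SE 0.15, adjusted p 9.52e-11), and CYP707A1, which breaks the hormone down, went from 9.84, 10.2 and 6.44 to 163, 141 and 136 RPKM (log2 change 3.93, SE 0.17, adjusted p 2.96e-11). Synthesis and breakdown genes thus rose together. KIN1, a cold and abscisic acid response gene, went from 5.44, 10.2 and 2.55 to 119, 88.1 and 83.5 RPKM, whereas the response genes RAB18 and RD29B did not pass (log2 changes 0.32 and 0.23).

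Growth hormone genes moved both ways. For gibberellin, 4 of 12 tested members rose at least 2-fold and 6 fell at least 2-fold; the falls numbered 3 with genes kept from 5 RPKM and 4 with median centring or without 0 h library 1, at 4 rises each. GA2OX6, which inactivates gibberellin, stood at 6.34, 6.28 and 4.37 RPKM at 0 h and 151, 175 and 213 RPKM at 1 h (log2 change 4.76, SE 0.17, adjusted p 2.1e-12), and GA2OX2 went from 6.74, 6.97 and 7.36 to 37.8, 30.4 and 35.1 RPKM. The synthesis enzymes GA20OX1, GA20OX2 and GA3OX1 fell, with log2 changes of -1.34, -1.39 and -1.25 from levels under 6 RPKM. The receptors split. GID1A and GID1C fell from 33.2, 32.01 and 37.002 to 8.12, 8.33 and 8.53 RPKM and from 23.47, 21.5 and 27.2 to 6.92, 6.24 and 6.51 RPKM, and GID1B rose from 9.01, 10.02 and 9.87 to 64.1, 60.9 and 58.1 RPKM. The DELLA repressor gene RGL3, which jasmonate induces, rose from 2.82, 3.29 and 2.46 to 31.4, 27.9 and 37.5 RPKM. For brassinosteroid, 0 of 12 members rose and 6 fell at least 2-fold; 1 member rose without 0 h library 1, 0 h library 2 or 1 h library 3, and 1 with median centring. BR6OX2, which makes brassinolide, stood at 107.9, 94.7 and 116 RPKM at 0 h and 18.01, 20.1 and 22.7 RPKM at 1 h (log2 change -2.33, SE 0.12, adjusted p 7.09e-11), and DWF4, the rate-limiting step, at 25.4, 22.997 and 21.3 RPKM at 0 h and 6.85, 7.45 and 4.97 RPKM at 1 h. BAS1, which inactivates the hormone, fell as well (-1.65), as did the transcription factor gene BES1 (from 146, 151 and 118 to 53.1, 56.2 and 48.8 RPKM).

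For cytokinin, 4 of 20 tested members rose at least 2-fold and 8 fell at least 2-fold (5 with median centring). LOG1, LOG4 and LOG7, which release the active base in the last step of synthesis, rose. LOG7 stood at 12.01, 15.5 and 13.2 RPKM at 0 h and 94.8, 82.8 and 85.2 RPKM at 1 h (log2 change 2.61, SE 0.13, adjusted p 7.5e-11). IPT3, which starts synthesis, fell from 62.4, 47.9 and 57.1 to 19.6, 11.8 and 21.6 RPKM. Type-A response regulators, which report and restrain cytokinin signalling, fell in ARR4, ARR5, ARR6, ARR8 and ARR9, with ARR9 at 69.9, 62.6 and 66.2 RPKM at 0 h and 13.97, 13.3 and 13.5 RPKM at 1 h (log2 change -2.20, SE 0.07, adjusted p 7.62e-13) and ARR8 at 41.6, 34.7 and 37.6 RPKM at 0 h and 9.59, 10.5 and 10.8 RPKM at 1 h. ARR7 rose by less than 2-fold (0.45), and ARR3 did not pass (-0.45, adjusted p 0.103). The cytokinin oxidase CKX6 rose from 2.28, 3.17 and 2.35 to 6.13, 6.39 and 9.33 RPKM.

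Auxin carriers and synthesis genes fell, with 0 of 14 tested members up and 9 down at least 2-fold, 5 with median centring. The flavin monooxygenase YUC6 stood at 11.2, 12.1 and 15.71 RPKM at 0 h and 1.37, 1.19 and 1.14 RPKM at 1 h (log2 change -2.64, SE 0.14, adjusted p 1.78e-10), and the uptake carrier LAX2 at 61.6, 59.2 and 59.9 RPKM at 0 h and 9.47, 13.05 and 14.3 RPKM at 1 h (log2 change -2.23, SE 0.13, adjusted p 7.51e-10). The groups did not overlap in either. The export carriers PIN4 and PIN7 fell, with log2 changes of -1.37 and -1.27, and PIN3 did not pass (0.18, adjusted p 0.179). Auxin response genes were divided, with 6 of 27 up and 11 down at least 2-fold, but 5 up and 3 down when the later libraries were left out of the fit. The balance also turned with median centring (6 up, 5 down), and with genes kept from 5 RPKM it was 5 up and 5 down; with a pseudocount of 0.1 the falls numbered 7. IAA2, an Aux/IAA repressor, stood at 159, 189 and 131 RPKM at 0 h and 1045, 1162 and 1326 RPKM at 1 h (log2 change 2.88, SE 0.14, adjusted p 7.22e-11), and GH3.3, which conjugates auxin and jasmonate to amino acids, stood at 40.998, 31.2 and 10.8 RPKM at 0 h and 339.9, 427 and 489 RPKM at 1 h (log2 change 4.04, SE 0.40, adjusted p 6.24e-07). Without 0 h library 3 the log2 change of GH3.3 was 3.496. IAA3 and IAA4 fell, with log2 changes of -1.41 and -1.75.

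Many of these auxin response genes and several wall genes were low in 0 h library 3. SAUR24, of a family of small proteins that promote cell elongation, stood at 10.4, 7.002 and 0.466 RPKM at 0 h and 0.949, 0.470 and 0 RPKM at 1 h, and SAUR19 at 6.63, 5.51 and 0.49995 RPKM at 0 h and 0.255, 0.756 and 0.254 RPKM at 1 h. In both, 0 h library 3 lay with the 1 h libraries. The SAUR19 to SAUR24 genes are near-identical neighbours, so their values are not independent. Their falls were -1.85 and -1.58 with all libraries and -2.75 with adjusted p 2.66e-07 and -2.33 with adjusted p 3.29e-08 without 0 h library 3. SAUR10, SAUR15, SAUR21, SAUR22, SAUR23 and SAUR63 lost their call without 0 h library 1 or without 0 h library 2; for SAUR22 the values were -0.81 with adjusted p 0.129 and -0.89 with adjusted p 0.115. The number of auxin response genes that fell at least 2-fold was 14 without 0 h library 3, 5 without 0 h library 1 or 2, and 7 without 1 h library 3. The number that rose was 4 without 0 h library 3 and 7 without 0 h library 1 or 2, which exceeds the falls without those libraries.

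In the list of expansins, xyloglucan endotransglucosylases and cellulose synthases, 3 of 28 tested members rose at least 2-fold and 5 fell at least 2-fold, 11 fell without 0 h library 3, 2 without 0 h library 1 or 2, 3 without 1 h library 3 and 3 with the later libraries left out of the fit. XTH22, the touch gene TCH4, which cuts and rejoins xyloglucan, stood at 16.8, 34.4 and 7.15 RPKM at 0 h and 462, 436 and 440.0 RPKM at 1 h (log2 change 4.69, SE 0.37, adjusted p 7.01e-08), and XTH23 went from 9.86, 13.4 and 3.18 to 239, 207 and 208 RPKM. Without 0 h library 3 their log2 changes were 4.15 and 4.13, against 4.69 and 4.65 with it. XTH18 stood at 181, 202 and 13.5 RPKM at 0 h and 987, 849 and 789 RPKM at 1 h, with a log2 change of 3.42, which became 2.18 with adjusted p 2.31e-06 without 0 h library 3 and 4.09 without 0 h library 2. The adjacent XTH19 stood at 147, 148 and 2.15 RPKM at 0 h and 224, 131 and 71.5 RPKM at 1 h and did not pass (adjusted p 0.184). The related XTH17, on chromosome 1, stood at 207, 213 and 7.76 RPKM at 0 h and 115.5, 82.4 and 9.85 RPKM at 1 h; it did not pass with all libraries (adjusted p 0.624), and without 0 h library 3 the change was -2.16 with adjusted p 0.0393. The expansin EXPA15, which loosens walls, fell from 37.6, 32.2 and 34.7 to 7.82, 9.54 and 8.56 RPKM (log2 change -1.89, SE 0.16, adjusted p 3.46e-08) without such a split, whereas EXPA8 and EXPA11 fell only without 0 h library 3 (-2.51 with adjusted p 6.08e-05 and -2.44 with adjusted p 0.000599). XTH15 (-1.13, adjusted p 0.0167) and XTH33 (-1.36, adjusted p 0.0125) fell with all libraries and lost their call without 0 h library 1 (-0.98 with adjusted p 0.062 and -0.97 with adjusted p 0.0687) or 0 h library 2 (-1.05 with adjusted p 0.0502 and -1.02 with adjusted p 0.0655), XTH15 also without 1 h library 3 (-0.68 with adjusted p 0.0982). The primary wall cellulose synthases CESA1 and CESA3 fell by less than 2-fold (-0.67 and -0.54). The level of the shoot apex marker STM was also lowest in library 3 at both times (2.05, 2.90 and 0.373 RPKM at 0 h and 1.52, 1.13 and 0.0947 RPKM at 1 h), and its part in these results was not tested.

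**Figure D5:**
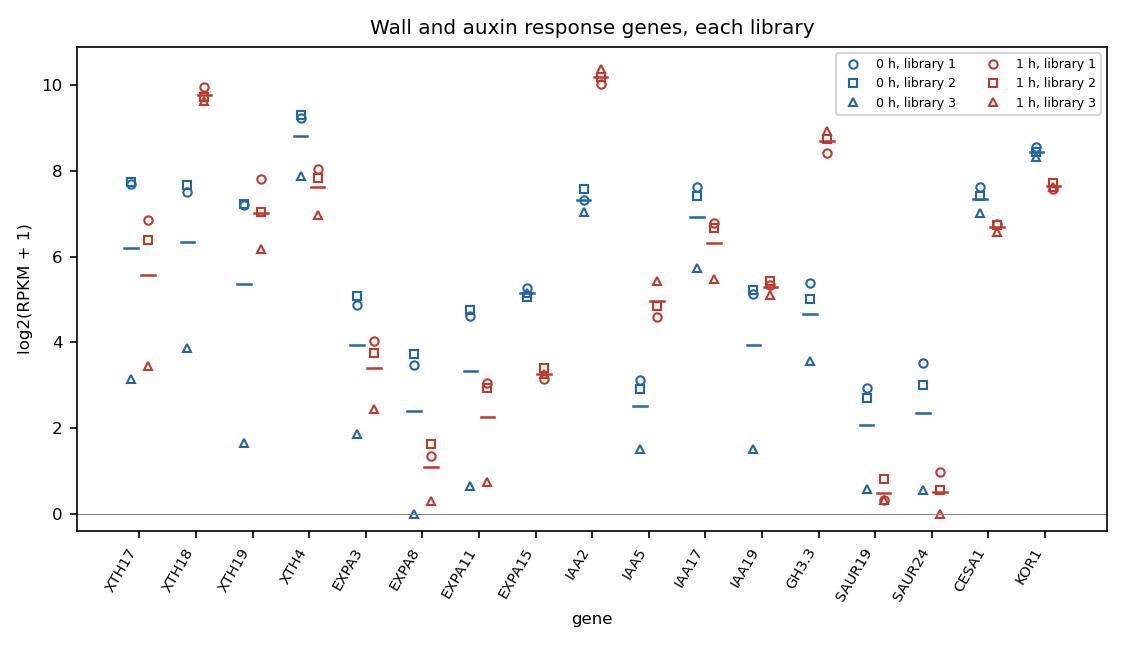
Log2(RPKM + 1) in each library (symbols) and group means (short lines) for wall and auxin response genes, 0 h in blue and 1 h in red. The blue triangle, 0 h library 3, lies far below the other 0 h symbols in XTH17, XTH18, XTH19, EXPA8, EXPA11, IAA19 and SAUR24, but not in EXPA15, IAA2 or KOR1.

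All 18 genes of the heat shock protein list rose at least 2-fold, although no label mentions warming. Small heat shock proteins hold unfolding proteins, and larger chaperones refold them. HSP17.4 stood at 0.866, 1.23 and 1.05 RPKM at 0 h and 433, 391.7 and 284 RPKM at 1 h (log2 change 7.48, SE 0.29, adjusted p 2.13e-11), HSP17.6A at 0.382, 1.21 and 0.403 RPKM at 0 h and 348, 287 and 179 RPKM at 1 h and the small heat shock locus AT1G07400 at 0.591, 0.781 and 0.780 RPKM at 0 h and 418, 359 and 236 RPKM at 1 h. In each, 1 h library 1 was highest and 1 h library 3 lowest. The disaggregase HSP101 stood at 4.98, 7.77 and 4.10 RPKM at 0 h and 528, 484 and 361 RPKM at 1 h (log2 change 6.13, SE 0.36, adjusted p 2.41e-09), the cytosolic HSP90.1 at 5.16, 8.39 and 6.12 RPKM at 0 h and 762, 651 and 479 RPKM at 1 h, and HSP70 at 33.9, 53.5 and 15.1 RPKM at 0 h and 1619.9, 1613 and 1329 RPKM at 1 h. Summed over the list, the level was 89.8, 135 and 63.1 RPKM at 0 h and 5945, 5369 and 3973 RPKM at 1 h, so the groups lay far apart and the 1 h libraries kept the same order as the single genes. HSP21, the chloroplast member, was listed at 0 in every 0 h library and reached 8.56, 6.29 and 6.06 RPKM. Among heat shock factors, which switch these genes on, 9 of 18 tested members rose at least 2-fold and 2 fell at least 2-fold. HSFA2, which sustains the heat response, stood at 1.25, 4.39 and 0.358 RPKM at 0 h and 331, 339 and 247 RPKM at 1 h (log2 change 6.90, SE 0.42, adjusted p 3.94e-09 in limma). Its tripartite element is shown above beside that of HSP17.4. Most promoters of these lists lacked that element. It stood in 2 of 18 promoters of the heat shock protein list and 3 of 18 of the factor list, against 76 of 18237 tested genes. The repressor-type factor HSFB1 went from 37.7, 38.5 and 35.1 to 235, 229.6 and 249 RPKM and HSFA4A went from 11.1, 12.98 and 13.2 to 51.9, 58.4 and 55.9 RPKM. The HSFA1 factors that act first in heat stress did not rise: HSFA1A, HSFA1D and HSFA1E did not pass (0.22, 0.19 and -0.13), and HSFA1B fell by less than 2-fold (-0.52). HSFA6A and HSFC1 fell (-2.39 and -1.21), HSFC1 by less than 2-fold without 0 h library 2 (-0.90). HSFA6B rose with all libraries (from 1.25, 6.21 and 0.579 to 6.49, 8.92 and 4.11 RPKM, adjusted p 0.00894), by 1.94 on the log2 scale without 0 h library 2, and lost its call without 0 h library 3 (0.84 with adjusted p 0.0516).

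Genes of tryptophan and of the indole compounds made from it rose in 12 of 17 tested cases, and 0 fell. ASA1 and ASB1, the subunits of anthranilate synthase at the pathway's entry, went from 16.1, 15.01 and 14.5 to 136, 129.6 and 111 RPKM and from 33.1, 29.6 and 25.6 to 229, 255 and 226 RPKM (log2 change 2.97, SE 0.11, adjusted p 1.56e-12 for ASB1). CYP81F2, which modifies indole glucosinolates in defence, went from 1.59, 2.74 and 4.50 to 36.2, 49.5 and 36.9 RPKM. PAD3, the last step to the phytoalexin camalexin, went from 0.552, 0.768 and 0.0766 to 12.4, 18.7 and 6.9998 RPKM. The core enzymes CYP83B1 and CYP79B3 did not pass (0.11 and 0.27), and their 0 h levels were already above 70 RPKM in each library.

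Regulators known from callus formation moved both ways. Of 11 tested members, 3 rose at least 2-fold and 1 fell; with median centring 6 rose. LBD16, which acts downstream of auxin in callus and lateral roots, stood at 7.77, 9.004 and 3.57 RPKM at 0 h and 21.9, 20.1 and 26.2 RPKM at 1 h (log2 change 1.68, SE 0.22, adjusted p 6.56e-06). PLT5, an AP2 factor of regeneration, stood at 2.82, 3.54 and 2.86 RPKM at 0 h and 11.3, 9.18 and 9.70 RPKM at 1 h, and LBD29 at 2.41, 1.86 and 1.19 RPKM at 0 h and 3.65, 7.09 and 7.001 RPKM at 1 h. WIND1, the wound-induced dedifferentiation factor, was already well expressed at 0 h and rose by less than 2-fold, from 175, 208 and 172 to 311, 268 and 271 RPKM (log2 change 0.61, SE 0.08, adjusted p 5.34e-06). The related locus AT1G36060 fell from 13.1, 13.1 and 15.73 to 3.46, 6.01 and 3.94 RPKM, and AT1G22190 fell by less than 2-fold (-0.73).

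Cell division genes fell more often than they rose. Of the cyclins, B-type CDKs and CDK inhibitors, 2 of 37 tested members rose at least 2-fold and 12 fell at least 2-fold. With median centring 3 rose and 7 fell. The counts were 3 up and 16 down with a pseudocount of 0.1, and 3 up and 17 down with voom. CYCA1;1, a mitotic A-type cyclin, went from 11.8, 12.2 and 10.7 to 1.92, 1.35 and 1.60 RPKM (log2 change -2.26, SE 0.15, adjusted p 2.84e-09), and CYCD3;1, which cytokinin and sugar induce, went from 42.6, 45.6 and 48.8 to 12.4, 15.5 and 15.8 RPKM. CDK inhibitors were not uniform. SIM, the founding SIAMESE inhibitor, fell from 81.1, 90.7 and 80.6 to 14.4, 17.2 and 18.7 RPKM (log2 change -2.27, SE 0.10, adjusted p 1.01e-11), and KRP2 fell from 29.4, 27.2 and 20.7 to 9.13, 7.21 and 7.39 RPKM, whereas SMR5, an inhibitor induced by reactive oxygen, rose from 0.429, 0.566 and 0 to 17.9, 14.3 and 12.1 RPKM (log2 change 3.57, SE 0.44, adjusted p 3.67e-06) and KRP6 rose from 11.8, 11.8 and 10.2 to 29.5, 25.7 and 34.7 RPKM. SMR7 (-1.05, adjusted p 0.0413) lost its call without any one of the 0 h libraries and without 1 h library 3 (-0.44 with adjusted p 0.251); the values without the 0 h libraries were -1.10 with adjusted p 0.0681, -0.93 with adjusted p 0.11 and -1.12 with adjusted p 0.0598. Of 8 replication licensing genes, 5 fell at least 2-fold, 3 with median centring and 7 with a pseudocount of 0.1 or with voom. The largest fall was that of MCM2, a helicase subunit (from 7.16, 7.84 and 6.92 to 2.36, 2.51 and 1.93 RPKM, log2 change -1.35).

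Cambium and vascular regulators fell at least 2-fold in 9 of 20 cases and rose so in 0. PXY, the receptor kinase of the cambium, stood at 58.1, 59.4 and 65.9 RPKM at 0 h and 8.37, 8.21 and 7.06 RPKM at 1 h (log2 change -2.81, SE 0.10, adjusted p 1.21e-12). WOX4, its target that promotes cambial division, stood at 11.2, 9.31 and 10.2 RPKM at 0 h and 2.76, 1.66 and 2.63 RPKM at 1 h, and LBD4, which acts at the phloem side, at 20.4, 15.8 and 19.9 RPKM at 0 h and 3.24, 3.48 and 3.37 RPKM at 1 h (log2 change -2.17, SE 0.19, adjusted p 9.24e-08). The times did not overlap in these genes. ANT, an AP2 factor of cambial growth, fell from 13.4, 13.5 and 16.4 to 3.02, 2.69 and 3.55 RPKM, and the homeodomain genes REV and BP fell, with log2 changes of -1.27 and -1.26. CLE41, whose peptide PXY binds, rose by less than 2-fold (from 16.2, 19.2 and 17.1 to 29.1, 22.3 and 24.8 RPKM). The xylem vessel factors VND6 and VND7 and the phloem factor APL did not pass (log2 changes 0.28, 0.37 and -0.09). In bulk tissue, fewer cells of a type and less RNA per cell cannot be told apart.

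Genes of darkness and sugar starvation, high at 0 h, fell at least 2-fold in 13 of 19 tested cases. The falls numbered 9 without 0 h library 3, 11 without 1 h library 3, and 10 without 1 h library 1, with median centring or with quantile normalization. SEN1 stood at 234, 311 and 559 RPKM at 0 h and 26.9, 48.7 and 55.2 RPKM at 1 h (log2 change -3.01, SE 0.34, adjusted p 2.38e-06), and DIN10, a raffinose synthase family gene, at 147, 229 and 388 RPKM at 0 h and 20.9, 40.5 and 41.3 RPKM at 1 h (log2 change -2.81, SE 0.29, adjusted p 1e-06). BXL1, a beta-xylosidase, stood at 841, 1069 and 1405 RPKM at 0 h and 132, 250.1 and 251 RPKM at 1 h (log2 change -2.41, SE 0.22, adjusted p 2.19e-07). In these genes 0 h library 3 was highest and 0 h library 1 lowest, and 1 h library 1 was lowest in its group. Summed over the list, the level was 4005, 4805 and 6369 RPKM at 0 h and 1786, 2234 and 2262 RPKM at 1 h, and the groups did not overlap. The beta-galactosidases BGAL1 and BGAL4 fell, with log2 changes of -2.01 and -1.84, and the trehalose phosphate synthase family genes TPS8 and TPS10 by -1.27 and -1.64. ASN1, the classic dark-induced asparagine synthetase, did not pass (7.19, 30.2 and 48.1 RPKM at 0 h and 7.39, 18.7 and 16.9 RPKM at 1 h, adjusted p 0.258). BGLU30 (-1.15, adjusted p 0.0463) lost its call without 0 h library 1 (-1.27 with adjusted p 0.0592), 0 h library 3 (-0.78 with adjusted p 0.186), 1 h library 1 (-0.70 with adjusted p 0.213) or 1 h library 3 (-1.14 with adjusted p 0.085). The one member that rose at least 2-fold was bZIP11, a sugar-signalling factor, from 8.73, 10.7 and 8.73 to 29.3, 28.3 and 29.03 RPKM.

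Transporters for sugar and water moved both ways within their families. Of 8 sugar transport genes, 3 rose and 3 fell at least 2-fold. The exporters SWEET11 and SWEET12, which load phloem, fell from 493, 502 and 667 to 165, 212 and 259 RPKM and from 310.1, 294 and 367 to 98.1, 107 and 149 RPKM. The uptake carriers STP13 and SUC1 rose from 44.8, 44.95 and 23.05 to 141, 122.03 and 104.2 RPKM and from 11.9, 17.3 and 11.8 to 64.9, 50.7 and 47.1 RPKM, and the wall invertase CWINV1, which splits sucrose outside the cell, rose from 12.7, 12.8 and 8.68 to 49.5, 49.8 and 29.5 RPKM. Among aquaporins, 3 of 19 tested members rose at least 2-fold and 8 fell at least 2-fold; the falls numbered 3 without 1 h library 1 and 1 with median centring. TIP1;2, a vacuolar water channel and the most abundant of the family per length, stood at 4027, 4837 and 4574 RPKM at 0 h and 1715, 2259.5 and 2225 RPKM at 1 h. PIP2;3 rose from 82.2, 78.1 and 73.1 to 329.9, 236 and 273 RPKM (log2 change 1.82, SE 0.14, adjusted p 1.45e-08), while its close copy and neighbour PIP2;2 fell from 1394, 1310.5 and 1457 to 557, 699 and 702 RPKM, and reads shared by the pair make the split between them uncertain. PIP1;4 rose from 20.8, 25.1 and 18.003 to 96.3, 55.8 and 78.5 RPKM.

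Clock genes moved both ways, with 7 of 19 not passing, 3 up and 2 down at least 2-fold (2 up and 4 down without 0 h library 1). With all libraries these counts lie close to the shares of all tested genes, 10.8% and 11.7%. The core genes CCA1, LHY and TOC1 did not pass (0.32, -0.12 and 0.03). BOA, an evening complex relative, rose from 8.27, 9.84 and 9.30 to 48.9, 49.2 and 65.6 RPKM (log2 change 2.44, SE 0.15, adjusted p 7.79e-10), and RVE2 fell from 125, 188 and 151 to 34.6, 47.1 and 42.9 RPKM. PRR9 (1.04, adjusted p 0.016) lost its call without 0 h library 1 (0.66 with adjusted p 0.0966), 0 h library 3 (0.92 with adjusted p 0.0536) or 1 h library 2 (0.91 with adjusted p 0.0582). Of the dark growth regulators, 2 of 13 tested members rose at least 2-fold and 6 fell at least 2-fold. The phytochrome-interacting factor genes PIF1, PIF3 and PIF5, which keep seedlings etiolated, fell, with log2 changes of -1.86, -1.58 and -1.59, PIF4 did not pass (-0.09, adjusted p 0.597), and the photoreceptor gene PHYA fell from 60.7, 63.1 and 72.0 to 24.9, 31.5 and 29.5 RPKM. HFR1, which restrains PIFs, fell from 60.2, 64.4 and 120.2 to 7.86, 13.2 and 13.6 RPKM (log2 change -2.68, SE 0.25, adjusted p 1.88e-07), with the highest 0 h value in library 3. HYH, a relative of HY5, rose from 1.37, 2.58 and 1.55 to 11.5, 12.5 and 7.32 RPKM. Low oxygen genes fell more often than they rose, with 1 of 11 up and 4 down at least 2-fold. ADH1 did not pass (17.82, 12.95 and 16.7 RPKM at 0 h and 18.24, 15.1 and 20.5 RPKM at 1 h, adjusted p 0.367), and the oxygen-regulated LBD41 and HRA1 fell, with log2 changes of -1.79 and -1.66. HRE2, an ERF factor of that list, rose from 0.282, 0.186 and 0 to 9.28, 6.75 and 5.10 RPKM.

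Markers of other tissues were mostly low. The 7 leaf genes summed to 7.63 to 24.0 RPKM over the 6 libraries, none rose or fell at least 2-fold, and LHCB1.1 and LHCB1.2 were below the threshold for testing. Of 8 seed genes, 1 was tested; the sum was 0.321 to 0.611 RPKM at 0 h and 0.912 to 5.13 RPKM at 1 h, with 3 to 7 of the 8 genes at 0 in each library. The storage protein gene SESA1 went from 0.0686, 0 and 0.181 to 3.13, 0.912 and 2.20 RPKM (log2 change 1.44). Of 7 root genes 2 were tested. SCR, a GRAS factor of the endodermis, stood at 20.4, 19.4 and 14.9 RPKM at 0 h and 4.85, 5.68 and 5.56 RPKM at 1 h (log2 change -1.59), and WOX5 at 0.771, 1.36 and 0.339 RPKM at 0 h and 5.36, 2.39 and 2.93 RPKM at 1 h (log2 change 1.31). Of 5 shoot apex genes only STM was tested. Of 5 genes that mark etiolated tissue, 4 were tested (PORB, PIF3, PHYA and HLS1), and PORA was below the threshold.

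The levels of the same genes at later times put the first hour in its course; the later libraries entered the fit through its shared estimate of spread, and 0 h and 1 h are shared, so no test is given. Of the 2012 genes that rose at least 2-fold, 1365 (67.8%) had their highest mean of all 6 time points at 1 h, 422 (21.0%) at 3 h and 177 (8.80%) at 6 h. By 24 h, 1426 of them (70.9%) lay within 1 on the log2 scale of their 0 h mean. Of the 2181 genes that fell, 1011 (46.4%) had their lowest mean at 1 h and 1404 (64.4%) were within 1 of the 0 h mean at 24 h. CML39 had means of 0.985, 472, 19.0, 13.2, 1.15 and 0.443 RPKM from 0 h to 24 h.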

How the data were processed

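Messenger RNA from dark-grown hypocotyls was sequenced from stranded libraries, per the labels' protocols, and the build was TAIR10, per the submitters' processing notes; no source used here names the aligner or counter, or says how shared reads and strand were handled. The authors deposited 1 table of RPKM values for 17 libraries. Its unit was read from the values. The read total of a library was the one most often implied by its genes under 1 RPKM and their RefSeq exon lengths. Between 509 and 641 genes gave that total in each library. With these totals, all 24834 genes above 0 had values that were whole multiples (tolerance 0.01 reads) of what 1 read is worth. The RefSeq exon length fitted 3496 of them, and for the rest a length that fitted was searched for. Log2(RPKM + 1) was fitted in limma 3.58.1 (R 4.3.3) with time as a factor over all 17 libraries, with trended and robust moderation, for 18646 genes at 1 RPKM or more in at least 2 of the 6 libraries of 0 h and 1 h; p-values were adjusted by Benjamini-Hochberg over these genes. Fold changes on this scale understate the change of low genes. Annotation, coordinates and promoters came from RefSeq TAIR10.1, which matched 18516 tested genes by locus, and tables were handled in Python 3.11.15.

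The members and gene lists were chosen with earlier results of these data known. Named genes were the 12 largest rises and 12 largest falls with a RefSeq symbol other than the locus, a mean log2 value of at least 1 and no overlap between groups, the 3 largest changes of at least 2-fold in each list, members that moved against their list, and other list members given for their role. Alternatives were other pseudocounts, filters and scalings, the 6 libraries alone, a replicate block, plain moderation, voom on the recovered reads and leaving out each library.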

Additional observations from a re-analysis of the deposited data

How the results depend on the processing

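The median log2 change of -0.39 became -0.44 with a pseudocount of 0.1 or with voom on recovered reads, -0.25 with no filter on low values, -0.24 with quantile normalization and -0.13 with median centring. Median centring called 6797 genes lower and 1094 at least 2-fold lower, and voom called 3344 at least 2-fold lower. The cause of these differences was not tested. Leaving out each library in turn gave 3361 to 3494 genes higher, 10015 to 10562 lower, 1948 to 2079 at least 2-fold higher, 2115 to 2309 at least 2-fold lower and a median of -0.39 to -0.37. Samples with the same replicate number deviated together at r = 0.298, 0.0965 and 0.362. The 0 h libraries 1 and 3 correlated best with the 1 h library of their own number, whereas 0 h library 2 correlated best with 1 h library 1 (0.184). The labels give no batch, so the fit took no pairs, and a fit with the numbers as a block was added. With the replicate block, 3569 genes were higher and 10846 lower, 2016 and 2202 at least 2-fold, with a median of -0.39. Of 364 list members that changed at least 2-fold, 0 turned direction under quantile normalization, voom or leaving out any 1 of the 6 libraries. Median centring moved every gene by the same amount, less than 1 on the log2 scale, and the block left the log2 changes as they were. Neither could therefore turn a direction. Lost calls numbered 8 with median centring, 3 with quantile normalization, 5 with voom and 1 with the block. They numbered 12, 9 and 5 without 0 h library 1, 2 or 3 and 2, 5 and 7 without 1 h library 1, 2 or 3. With the 6 libraries alone, falls of at least 2-fold numbered 3 of auxin response genes and 3 of wall genes, and IAA1 was among the lost calls (adjusted p 0.063 in limma). With median centring, counts of members that fell at least 2-fold became 0 for calcium, 0 for WRKY, 0 for jasmonate breakdown, 1 for ethylene, 5 for auxin response, 1 for heat shock factors and 2 for wall genes, and 11 MYB genes rose. With quantile normalization, 6 callus regulators rose and 3 licensing genes fell. Depth limits genes near 1 RPKM most.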
